A study of Mus musculus with 8 samples.

Results

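The comparison described here is CD95 knockout against wild type in 4T1 tumors grown in NSG mice, and it used 4 of the 8 libraries of the series, chosen by the host strain and line in their titles. 4T1 is a mouse mammary carcinoma line used to model triple-negative breast cancer, and NSG mice are immunodeficient hosts without mature T, B and NK cells. The wild-type group held the parental line and a line that stably expresses vCas9. The knockout group held CRISPR/Cas9 clones 54 and 69, which lack CD95, the receptor encoded by Fas. All 4 lines had been implanted in the mammary fat pad and the tumors were collected within 20 days, and the same 4 lines were also grown in Balb/c mice, which have a full immune system. The knockout lines are single clones, no label calls either wild-type line a clone, and the 2 libraries of a group come from different lines, so clonal differences and CD95 status cannot be told apart. The labels do not say whether a library is 1 tumor or several, so p-values measure only the spread between these samples. Of 25006 gene identifiers in the files, 15310 passed the filter on low counts and were tested.

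CD95 is a death receptor of the tumor necrosis factor receptor family. When its ligand (Fasl) binds, the adaptor Fadd recruits caspase-8 into a complex that starts apoptosis, and Cflar restrains that step. In many carcinoma cells CD95 also signals without killing, through NF-kB and kinase pathways, and can drive the release of cytokines that act on myeloid cells. NSG mice keep macrophages, neutrophils and other myeloid and stromal cells with an intact Fas gene, so a tumor library mixes RNA of cancer cells and host cells.

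Library totals were 14.1 and 11.6 M counts (M for mega) in wild type and 9.10 and 8.68 M in knockout, so depth moved with the groups, and thinning every library to the smallest total gave the same 2 called genes as the full counts. One small RNA gene, Mir6236, took 5.79% of the counts of clone 54 and 0.658% to 1.43% in the other 3 NSG libraries. None of the 13 mitochondrial genes listed had a count. The parental and vCas9 libraries were the closest pair (Pearson r = 0.984 across genes, which are not independent replicates, and 887 genes 2-fold or more apart). The clones differed 2-fold or more in 1524 genes (r = 0.971). By both measures the vCas9 library was closer to clone 69 (r = 0.973, 1374 genes) than the clones were to each other. By the median absolute log2 difference the clones were slightly closer, at 0.287 against 0.298. The clones therefore did not form a group clearly apart from the vCas9 library. The vCas9 library lay between the parental library and the knockouts: of 8046 genes whose groups did not overlap, the parental library was farther from the knockouts in 5683 (70.6%). T, B and NK cell genes were near 0 in these tumors. Levels were summed over tested members, 14 of 17 listed for T cells, 10 of 12 for B cells and 13 of 13 for NK cells. The sums were 7.60 to 12.8 CPM for T cells, 4.22 to 6.88 CPM for B cells and 3.18 to 11.02 CPM for NK cells across the 4 libraries (CPM is the usual depth-scaled count unit, from TMM-scaled totals). Of the 11.02 CPM, found in clone 54, Eomes gave 7.70 CPM.

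Fas itself was not the check of the edit that it would be in a pure cell line. It stood at 33.9 and 22.6 CPM in the parental and vCas9 tumors and at 29.5 and 12.9 CPM in clones 54 and 69. The groups overlapped, and the log2 fold change was -0.42 ± 0.37 (SE, edgeR quasi-likelihood test, adjusted p = 0.628). It was -1.13 without clone 54 and 0.0597 without clone 69, so its direction rested on 1 library. The position of the edit is not given in the sources used here, and counts per gene do not show whether a transcript is intact. Host cells may also contribute Fas RNA, and their share was not tested. The Fas values therefore do not test the knockout. The ligand gene Fasl had 5 and 5 counts in wild type and 2 and 0 counts in knockout. Those are too few to read its fold change, although it is among the 21 tested members of the CD95 list below.

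Among 15310 genes, 2 passed an adjusted p of 0.05 (0.0131% of those tested), and both fell in the knockout tumors. They encode an enzyme and a chemokine with myeloid targets. At the same threshold edgeR called no gene higher, while DESeq2 called 104 genes higher and 236 lower, and edgeR without the low-count filter 41 higher and 92 lower. At any p, 7414 genes were lower and 7856 higher. At an unadjusted p under 0.05 there were 2148 genes (14% of those tested), 1110 lower (7.25%) and 1038 higher (6.78%), and both knockout libraries lay below both wild-type libraries in 25.8% of all genes and above them in 26.7%. With the parental library left out, 691 genes had an unadjusted p under 0.05. Over all genes the median log2 difference was 0.0131, and 0.0956 when libraries were scaled by total counts.

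Odc1, ornithine decarboxylase, the rate-limiting enzyme of polyamine synthesis, was at 844 and 694 CPM in the parental and vCas9 tumors and at 190 and 167 CPM in clones 54 and 69. Both clones were far below both wild-type lines, and the gene fell by 2.11 on the log2 scale (SE 0.19, edgeR adjusted p = 0.0316). Ccl24, eotaxin-2, a chemokine that attracts eosinophils and is made by alternatively activated macrophages, was at 25.1 and 19.5 CPM in wild type and at 3.10 and 4.38 CPM in clones 54 and 69. It fell by 2.57 on the log2 scale (SE 0.23, edgeR adjusted p = 0.0316), again without overlap. Neither call held when any one of the 4 NSG libraries was left out (adjusted p between 0.203 and 0.457 for both genes), and with only the 4 NSG libraries in the fit the adjusted p was 0.121 for Odc1 and 0.123 for Ccl24.

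**Figure D1:**
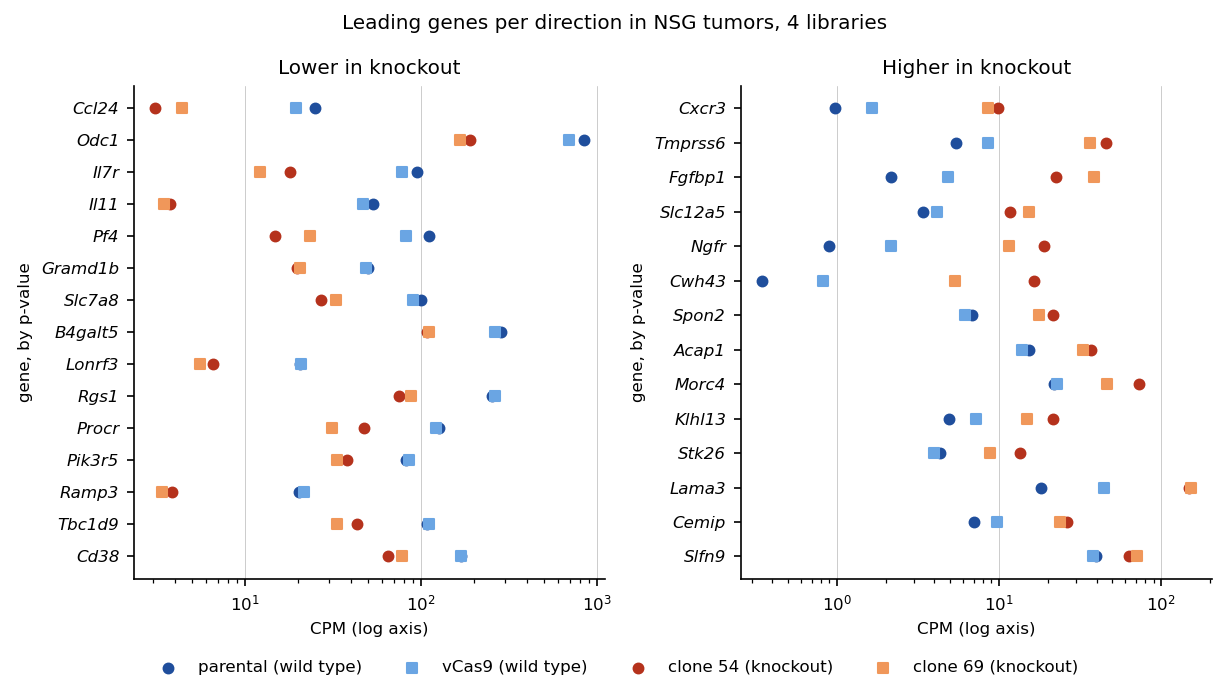
CPM of 15 lower and 14 higher genes, among the 15 with the smallest p-values in each direction, on a log axis, with 1 point for each of the 4 NSG libraries. Parental and vCas9 points lie apart from clone 54 and clone 69 points for every gene shown, because the genes were chosen for not overlapping; Odc1 drops from 844 and 694 CPM to 190 and 167 CPM.

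The other leading genes that were lower in knockout did not pass the adjusted threshold. Il11, a cytokine of the interleukin-6 family, was at 53.5 and 47.1 CPM in wild type and at 3.75 and 3.48 CPM in the clones (log2 fold change -3.80 ± 0.44 SE, edgeR adjusted p = 0.08), and it was the only gene called when just the 4 NSG libraries were fitted. Il7r, the interleukin-7 receptor alpha chain, was at 95.4 and 78.0 against 18 and 12.1 CPM (-2.53 ± 0.27, adjusted p = 0.08). Pf4, a platelet and myeloid chemokine also known as Cxcl4, was at 111 and 82.6 against 14.8 and 23.6 CPM (-2.33 ± 0.27, adjusted p = 0.08). In all 3 genes each clone was below each wild-type line. Procr, the endothelial protein C receptor, was at 127 and 122 against 47.8 and 31.1 CPM, and Ramp3, a partner of calcitonin-family receptors, at 20.3 and 21.6 against 3.85 and 3.38 CPM. Rgs1, a regulator of G protein signaling in leukocytes, was at 253 and 265 against 75.0 and 87.8 CPM, and Cd38, an ectoenzyme that consumes NAD, at 168 and 170 against 65.3 and 78.2 CPM. The remaining 6 of the 15 lower genes were Gramd1b, Slc7a8, B4galt5, Lonrf3, Pik3r5 and Tbc1d9, with log2 fold changes from -1.77 to -1.22.

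Among the leading higher genes the smallest edgeR adjusted p was 0.0841. Cxcr3, a chemokine receptor best known on lymphocytes, was at 0.970 and 1.66 CPM in wild type and 9.84 and 8.55 CPM in clones 54 and 69 (log2 fold change 2.81 ± 0.37). Tmprss6, a membrane serine protease, was at 5.4 and 8.53 against 45.6 and 36.7 CPM (2.56 ± 0.36), and Fgfbp1, a carrier that releases fibroblast growth factors from matrix, at 2.15 and 4.89 against 22.4 and 38.4 CPM (3.12 ± 0.43). These 3 genes were low in wild type and severalfold higher in both clones. Ngfr, the p75 neurotrophin receptor, was at 0.900 and 2.15 against 19.1 and 11.5 CPM. Lama3, a laminin chain of epithelial basement membrane, was at 18.2 and 44.2 against 150 and 152 CPM, with the vCas9 line between the parental line and the clones. Among the other 9 higher genes (Slc12a5, Cwh43, Spon2, Acap1, Morc4, Klhl13, Stk26, Cemip and Slfn9), log2 fold changes ran from 0.80 to 4.22.

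Odc1 converts ornithine to putrescine, and its supply and control genes were described as a list of 18 tested members. Of these, 15 were lower, 5 had an unadjusted p under 0.05 and all 5 were lower (7.25% of all genes were lower at that threshold), and the median log2 fold change was -0.27, against 0.0131 over all genes. It was -0.41 in clone 54 and -0.23 in clone 69, and -0.42 when clone 69 was left out. Azin1, which protects Odc1 from its inhibitor, was at 343 and 278 CPM in wild type and 195 and 172 CPM in clones 54 and 69, and Sat1, which starts polyamine breakdown, at 333 and 309 against 224 and 168 CPM. In both genes the clones were below both wild-type lines, as in 8 of the 18 members (25.8% of all genes), and only Odc1 passed the adjusted test.

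Glycolysis genes were lower nearly as a block. Of 17 tested members 16 were lower, 12 had an unadjusted p under 0.05 (12 lower, 0 higher, where 7.25% of all genes were lower), and 15 had both clones below both wild-type lines (25.8% of all genes). The median was -0.69, against 0.0131 over all genes, and it was -0.53 in clone 54 and -0.80 in clone 69 against the wild-type mean. No member passed the adjusted threshold (smallest adjusted p = 0.189, for Pgam1). Pgam1, phosphoglycerate mutase, was at 156 and 144 CPM in wild type and at 87.0 and 88.1 CPM in the clones. Gapdh was at 1159 and 934 against 648 and 494 CPM, and Ldha, which turns pyruvate into lactate, at 1124 and 947 against 694 and 589 CPM. Pgk1, phosphoglycerate kinase, was at 508 and 411 against 316 and 230 CPM. In each of these the parental line was highest and, except in Pgam1, clone 69 lowest. Hk1, the housekeeping hexokinase, was the exception, at 127 and 121 against 131 and 138 CPM. When single NSG libraries were left out the median ranged from -0.83 to -0.54, while the 12 members at an unadjusted p under 0.05 became 4 without the parental library and 4 without clone 69.

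The hypoxia list, genes that rise under low oxygen through HIF factors, had 7 of 18 tested members with an unadjusted p under 0.05 in the lower direction and 1 in the higher (7.25% and 6.78% of all genes), with a median of -0.39. The 7 lower members became 2 without the parental library and 3 without clone 69, where the median was -0.25. Vegfa, the main angiogenic growth factor, was at 597 and 729 CPM in wild type and at 273 and 260 CPM in clones 54 and 69 (-1.31 ± 0.24, edgeR adjusted p = 0.141). Mxi1, a MYC antagonist, was at 122 and 131 against 71.4 and 47.3 CPM, and Slc2a1, the glucose transporter GLUT1, at 348 and 310 against 215 and 143 CPM. In all 3 both clones were below both wild-type lines. Stc2, a secreted stanniocalcin, was higher, at 9.49 and 16.8 against 115 and 35.1 CPM. Of the placental growth factor Pgf, another ligand of VEGF receptors, 38.4 and 69.1 CPM were measured in wild type and 15.6 and 24.9 CPM in the clones.

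The bases before the start of Odc1 and of 3 glycolysis genes are shown because these genes were lower in both clones, and the windows differ in a motif that the HIF factors bind. The motif searched was the core ACGTG on both strands. It lies inside the E-box CACGTG, which holds it on both strands, so 1 E-box counts as 2 matches. Each window is the 250 bases before the RefSeq start on GRCm38.p6, and capitals mark the matches:
Odc1 (chr12:17544623-17544872, plus strand): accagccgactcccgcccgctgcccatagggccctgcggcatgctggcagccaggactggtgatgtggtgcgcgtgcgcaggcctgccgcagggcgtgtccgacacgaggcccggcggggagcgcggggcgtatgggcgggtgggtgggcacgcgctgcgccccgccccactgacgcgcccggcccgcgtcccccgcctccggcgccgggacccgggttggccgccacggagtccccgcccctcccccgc
Ldha (chr7:46845554-46845803, plus strand): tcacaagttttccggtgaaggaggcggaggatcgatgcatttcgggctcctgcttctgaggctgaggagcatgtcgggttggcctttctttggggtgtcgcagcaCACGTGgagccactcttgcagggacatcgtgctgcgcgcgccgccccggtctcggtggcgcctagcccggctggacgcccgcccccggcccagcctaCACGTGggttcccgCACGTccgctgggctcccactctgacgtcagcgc
Pgk1 (chrX:106186850-106187099, plus strand): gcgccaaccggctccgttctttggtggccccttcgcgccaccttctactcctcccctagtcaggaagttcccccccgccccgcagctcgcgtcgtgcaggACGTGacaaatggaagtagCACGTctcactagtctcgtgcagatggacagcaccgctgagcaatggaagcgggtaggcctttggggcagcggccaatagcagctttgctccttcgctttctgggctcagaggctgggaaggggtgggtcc
Pgam1 (chr19:41911621-41911870, plus strand): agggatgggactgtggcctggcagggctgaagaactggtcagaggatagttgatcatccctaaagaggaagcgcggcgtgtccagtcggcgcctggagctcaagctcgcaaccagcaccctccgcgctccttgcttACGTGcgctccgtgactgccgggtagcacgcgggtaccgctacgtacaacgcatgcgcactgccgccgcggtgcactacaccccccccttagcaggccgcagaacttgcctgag
No match lies in the Odc1 window, 5 lie in that of Ldha, 2 in that of Pgk1 and 1 in that of Pgam1. The core was found in 9 of 17 glycolysis promoters (52.9%) and in 11 of the 17 hypoxia-list promoters matched (64.7%), against 18.5% of all 27025 genes with a promoter. Among the 15 leading lower genes it was in 1 of the 12 promoters matched (8.33%). Ccl24 was not in the promoter table. A match is a description of letters, not a binding site, and no match says nothing of any factor. The glycolysis and hypoxia lists were chosen by gene function, so their shares are no result about the knockout.

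Macrophage and monocyte genes were lower in both clones. Of 17 tested members 15 were lower, 9 had an unadjusted p under 0.05 (9 lower, 0 higher, where 7.25% of all genes were lower), and the median was -0.88, with -1.02 in clone 54 and -0.68 in clone 69. The 9 became 3 without the parental library, 6 without the vCas9 library and 5 without either clone. The summed level of the list was 6370 and 6383 CPM in the parental and vCas9 tumors and 3513 and 3722 CPM in clones 54 and 69. In bulk tumors fewer cells of a type and less RNA per cell cannot be told apart. Msr1, a scavenger receptor, was at 618 and 475 CPM in wild type and 139 and 257 CPM in the clones. Cd68, a lysosomal macrophage marker, was at 230 and 211 against 122 and 115 CPM, and Adgre1, which encodes F4/80, at 184 and 175 against 119 and 126 CPM. Itgam, the integrin chain CD11b, was at 733 and 635 against 440 and 326 CPM. The 2 members that were higher were Ccr2, at 91.9 and 80.1 against 111 and 166 CPM, and Ly6c2, at 6.58 and 5.63 against 15.5 and 5.87 CPM, both markers of newly arrived monocytes. No member passed the adjusted threshold (smallest adjusted p = 0.185).

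The list of alternatively activated macrophage genes had a median of -0.80, with 15 of 18 lower, 6 lower and 1 higher at an unadjusted p under 0.05 (7.25% and 6.78% of all genes), and Ccl24 as its only member past the adjusted threshold. The 6 lower members were 11 with only the 4 NSG libraries, 10 without the low-count filter and 9 with DESeq2, and 4 without the parental library or clone 69. Clec10a, a galactose-binding lectin, was at 23.3 and 20.4 CPM in wild type and 9.63 and 10.2 CPM in the clones (-1.14 ± 0.23, edgeR adjusted p = 0.167). Ccl22, which draws regulatory T cells, was at 25.6 and 16.4 against 7.17 and 3.08 CPM. Mrc1, the mannose receptor CD206, was at 1031 and 1008 against 503 and 694 CPM. Cd209a, a lectin of dendritic cells, was the higher one, at 2.91 and 2.07 against 5.24 and 5.27 CPM. Dendritic cell genes were lower in 12 of 13 tested members, with 4 lower and 1 higher at an unadjusted p under 0.05 and a median of -0.45. The 4 became 2 without the parental library, without clone 54, with total-count scaling, with limma-voom or with thinned counts. Among them Ccr7, the receptor that guides cells to lymph nodes, was at 32 and 21 against 5.46 and 5.47 CPM.

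**Figure D2:**
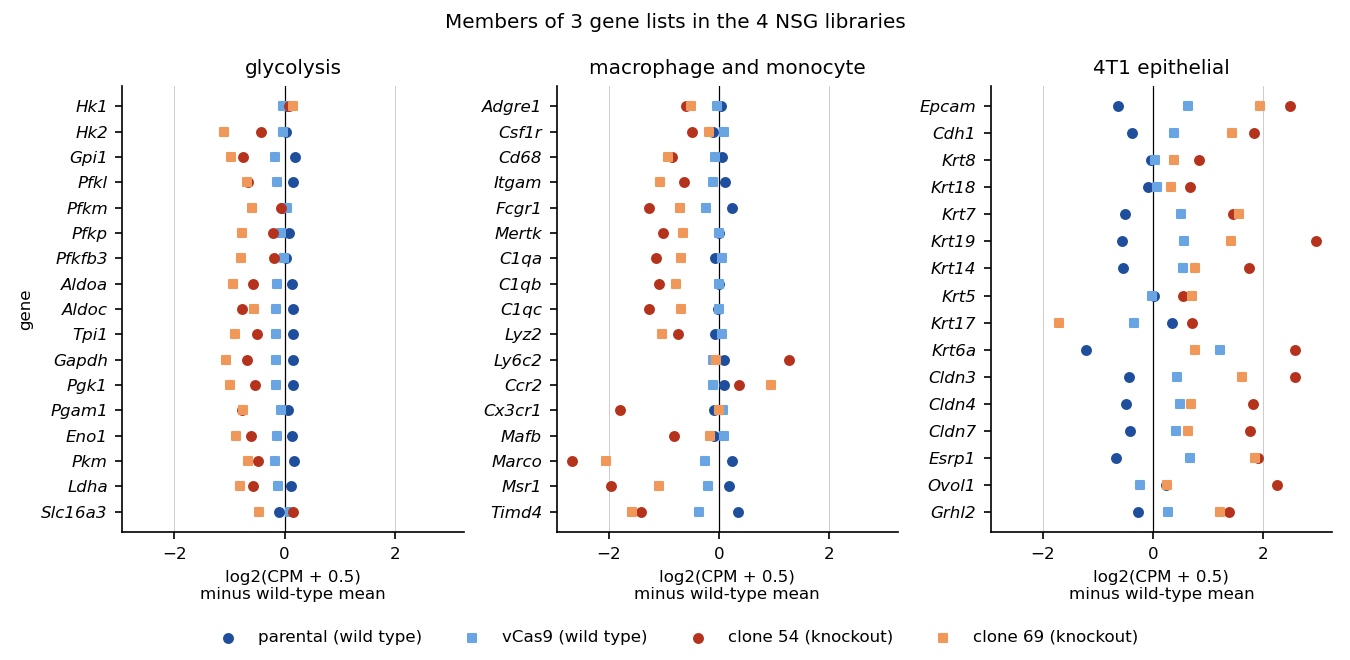
Level of each member of 3 gene lists in the 4 NSG libraries, as log2(CPM + 0.5) minus the mean of the 2 wild-type libraries. The fitted difference is below 0 for 16 of 17 glycolysis genes and 15 of 17 macrophage genes, and above 0 for 15 of 16 epithelial genes; for the epithelial list the vCas9 line also lies right of the parental line.

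In the list of NF-kB targets and inflammatory cytokines, 9 of 19 tested members had an unadjusted p under 0.05, all lower (7.25% of all genes were lower at that threshold), 4 were higher at any p, and none passed the adjusted threshold. The median was -0.50, with -0.45 in clone 54 and -1.20 in clone 69. Without clone 54 the median was -1.22, and without clone 69 only 10 of the 19 were lower and 6 had an unadjusted p under 0.05. Il6 was at 224 and 290 CPM in the parental and vCas9 tumors and 118 and 58.8 CPM in clones 54 and 69 (-1.54 ± 0.34, edgeR adjusted p = 0.194). Csf3, which encodes the neutrophil growth factor G-CSF, was at 177 and 106 against 42.5 and 15.9 CPM, and Csf2, which encodes GM-CSF, at 19.8 and 35.3 against 11.4 and 6.07 CPM. Clone 69 was lowest in all 3 genes. Lif, a cytokine of the interleukin-6 family, was at 350 and 287 against 97.0 and 73.6 CPM, and Ptgs2, the prostaglandin enzyme COX-2, at 2401 and 1852 against 1044 and 743 CPM. Nfkb1, which encodes an NF-kB subunit, was at 525 and 441 against 226 and 173 CPM. Other members did not separate: Il1b was at 2084 and 2324 against 3973 and 1723 CPM, and Nfkbia, the NF-kB inhibitor, at 642 and 636 against 830 and 512 CPM.

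The Il6 promoter is shown because NF-kB and AP-1 act on it and the gene was lower in both clones. Motifs were the kappa B core GGANTTTCC and the AP-1 motif TGANTCA, each on both strands, and capitals mark the matches, 1 of each, which do not overlap:
Il6 (chr5:30012864-30013113, plus strand): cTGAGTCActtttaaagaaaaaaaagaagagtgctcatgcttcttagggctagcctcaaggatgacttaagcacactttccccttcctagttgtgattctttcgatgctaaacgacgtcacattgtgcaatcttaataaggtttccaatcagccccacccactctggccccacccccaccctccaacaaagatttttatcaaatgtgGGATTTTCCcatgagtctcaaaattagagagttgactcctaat
The kappa B core was found in 6 of the 14 promoters matched for this list (42.9%), against 1.25% of all genes. The AP-1 motif was in 5 of 14 (35.7%), against 7.82%. The list was chosen as NF-kB targets, so these shares describe the list and are no result about the knockout. Among the 15 leading lower genes the kappa B core was in 0 of the 12 promoters matched. The AP-1 motif was in 2 of those 12 (16.7%).

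Of 25 chemokine genes tested, 9 were lower and 1 higher at an unadjusted p under 0.05 (7.25% and 6.78% of all genes), and the median was -0.83. The 9 became 4 without the parental library and 4 without clone 69. Ccl24 alone passed the adjusted threshold. Cxcl1, which attracts neutrophils, was at 1378 and 1261 CPM in wild type and 685 and 379 CPM in clones 54 and 69. Ccl9, a myeloid attractant, was at 550 and 472 against 281 and 210 CPM, and Ccl2, which attracts monocytes, at 477 and 512 against 313 and 183 CPM. The list median was -0.36 in clone 54 and -1.20 in clone 69, so the size rested largely on clone 69, and without that clone it was -0.38.

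**Figure D3:**
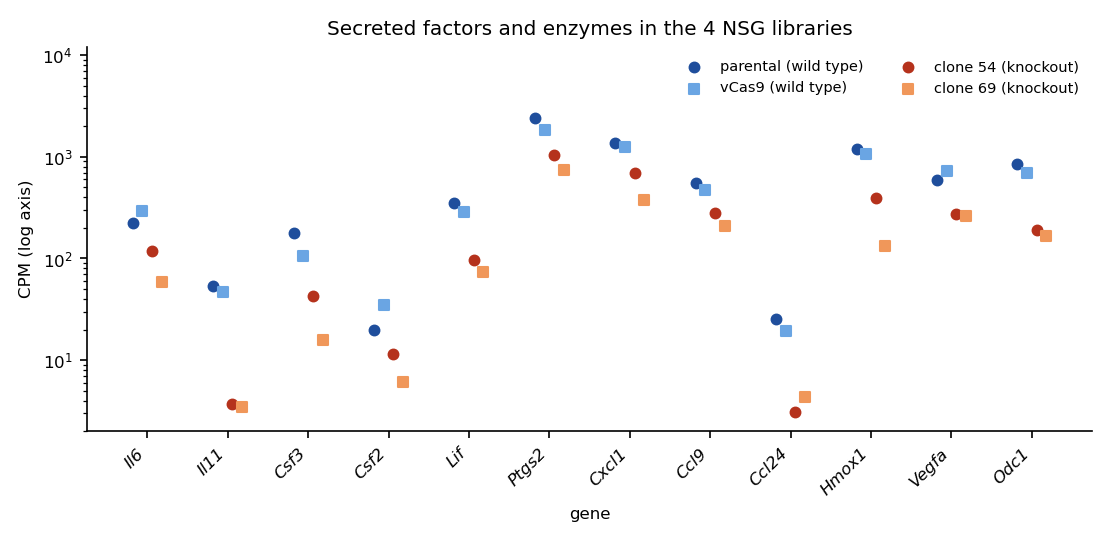
CPM of 12 secreted factors and enzymes on a log axis, with 1 point for each of the 4 NSG libraries. Both clones lie below both wild-type lines in each gene shown; the genes were chosen after their values were seen. Il11 is at 53.5 and 47.1 CPM in wild type and at 3.75 and 3.48 CPM in the clones, and clone 69 has the lower value of the pair for Il6, Csf3 and Hmox1.

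Oxidative stress genes, most of them targets of the factor NRF2, had 8 of 14 tested members lower at an unadjusted p under 0.05 (7.25% of all genes), 0 higher and a median of -0.76. Without clone 69 the median was -0.47 and 5 members had an unadjusted p under 0.05, also 5 without the parental library, and without clone 54 the median was -1.12. Hmox1, heme oxygenase-1, was at 1183 and 1054 CPM in wild type and 396 and 133 CPM in clones 54 and 69 (-2.08 ± 0.48, edgeR adjusted p = 0.202). Srxn1, which repairs peroxiredoxins, was at 356 and 286 against 140 and 71.1 CPM, and Txnrd1, thioredoxin reductase, at 497 and 435 against 246 and 179 CPM. Both clones were below both wild-type lines and clone 69 was lowest in each. Nqo1, a common NRF2 reporter, overlapped between groups, at 9 and 5.63 against 5.99 and 3.78 CPM.

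Genes of protein synthesis were lower by small amounts. All 24 tested ribosomal protein genes were lower, 22 of them without overlap (25.8% of all genes), and 6 had an unadjusted p under 0.05 (7.25% of all genes), with a median of -0.41. The 6 became 0 without the parental library, 2 or 3 without any other NSG library, 1 with total-count scaling and 11 with DESeq2. Rplp2 was at 354 and 338 CPM in wild type and 215 and 247 CPM in the clones. In the list of MYC targets and ribosome biogenesis 17 of 19 were lower, 5 with an unadjusted p under 0.05, and the median was -0.39. The 5 became 2 without the parental library, where the median was -0.24, and 2 without clone 69. Gnl3, nucleostemin, was at 147 and 113 against 73.5 and 68.6 CPM, while Myc was at 97.4 and 118 against 95.8 and 60.6 CPM. In the list of unfolded protein and amino acid stress 17 of 20 were lower, 6 with an unadjusted p under 0.05, which became 1 without the parental library and 3 without the vCas9 line or clone 69. Atf4, its main transcription factor, was at 346 and 295 against 227 and 171 CPM.

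Epithelial genes of 4T1 cells were higher in both clones. Of 16 tested members 15 were higher in knockout, 14 without overlap (26.7% of all genes), and 4 had an unadjusted p under 0.05 (6.78% of all genes), with a median of 1.36 and a smallest edgeR adjusted p of 0.202. Without clone 54 the median was 0.81 and 1 member had an unadjusted p under 0.05, and without the parental library 1 member did, while the 4 were 11 with only the 4 NSG libraries, 9 without the low-count filter and 6 with total-count scaling or without clone 69. Epcam, an epithelial adhesion molecule, was at 47.5 and 116 CPM in the parental and vCas9 tumors and 416 and 288 CPM in clones 54 and 69. Cdh1, which encodes E-cadherin, was at 57.8 and 98.7 against 270 and 206 CPM, and Krt14, a basal keratin, at 16.3 and 35.0 against 81.4 and 40.8 CPM. The lines fell in the order parental, vCas9, clone 69, clone 54 in each of the 3 genes. The list median was 1.81 in clone 54 and 0.84 in clone 69 against the wild-type mean, and the parental line was below the vCas9 line by a median of -0.90, so the wild-type lines differed from each other by about as much as clone 69 did from their mean.

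Markers that separate epithelial from mesenchymal state were mixed, with 10 of 16 lower, 5 lower and 1 higher at an unadjusted p under 0.05 (7.25% and 6.78% of all genes) and a median of -0.22. The median was -0.0153 without the vCas9 library, -0.11 without clone 54 and -0.38 without clone 69, and the 5 lower members became 3 without the parental library, without clone 54 or with total-count scaling. Vim, the filament vimentin, was at 4533 and 2960 CPM in wild type and 1844 and 2313 CPM in clones 54 and 69. Snai2, a repressor of E-cadherin, was higher, at 1.87 and 2.98 against 6.96 and 8.45 CPM. Thus both Cdh1 and a repressor of it were higher in the clones.

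Stromal and other myeloid cell lists were higher or split between the clones. Fibroblast genes had a median of 0.55, with 14 of 15 higher, 11 without overlap (26.7% of all genes) and 3 at an unadjusted p under 0.05 (6.78% of all genes). The parental line was below the vCas9 line by a median of -0.64, more than the knockout effect. The median was 0.26 without the parental library and 0.85 without the vCas9 library. Their summed level was 18760 and 27630 CPM in wild type and 36150 and 31440 CPM in the clones. Mast cell and eosinophil genes had a median of 1.06, but 0.20 in clone 54 and 1.19 in clone 69, and it was 0.15 without clone 69 and 0.68 without the parental library. Siglecf, an eosinophil receptor, was at 3.12 and 7.87 against 29.5 and 23.4 CPM, and Kit, the stem cell factor receptor of mast cells, at 13.5 and 17.2 against 36.1 and 35.9 CPM. Ccl24, which attracts eosinophils, was lower in the same tumors, while the eosinophil granule gene Epx had 0 CPM in all 4 NSG libraries. Neutrophil genes had a median of 0.37 that was 0.85 in clone 54 and -0.31 in clone 69. S100a8 was at 381 and 496 against 819 and 367 CPM, and Mmp9, a gelatinase, at 236 and 543 against 805 and 1394 CPM. How far changes in cell makeup enter the lists above was not tested.

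**Figure D4:**
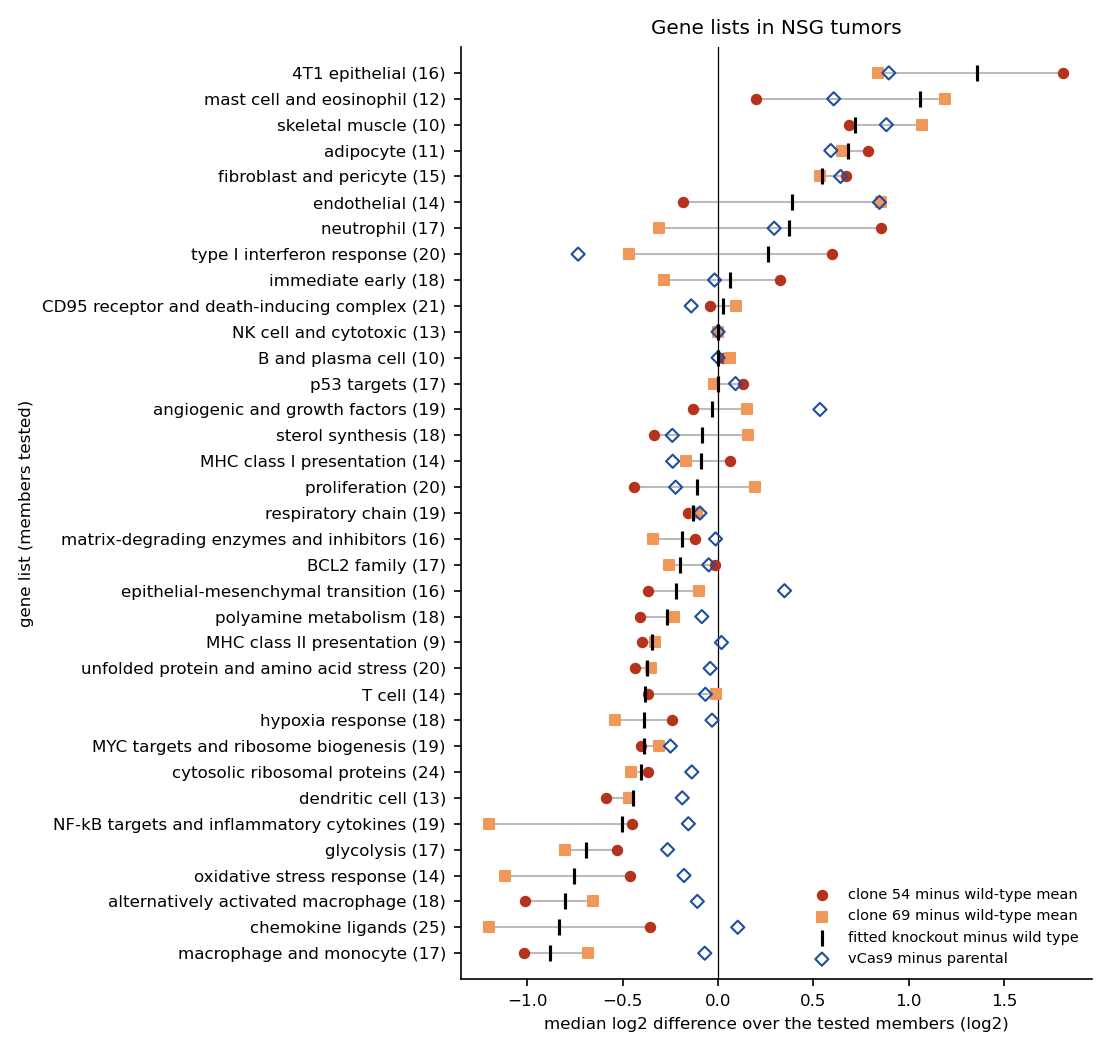
Median log2 difference over the tested members of 35 gene lists in NSG tumors, for clone 54 and clone 69 against the wild-type mean, for the fitted knockout effect, and for vCas9 minus parental. Both clones lie below 0 for macrophage (-1.02 and -0.68) and glycolysis genes (-0.53 and -0.80) and above 0 for epithelial genes, whereas neutrophil, endothelial and interferon lists have clones on opposite sides of 0.

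No gene of the CD95 pathway itself passed the adjusted threshold. The list of the receptor and its death-inducing complex had a median of 0.03 over 21 tested members, Fasl among them (0.0324 over 19 with only the 4 NSG libraries). Of the 21, 2 were lower and 1 higher at an unadjusted p under 0.05, a share like the 14% of all genes. The median was -0.0386 without the vCas9 library and -0.0475 without clone 69, and without the parental library 0 members had an unadjusted p under 0.05. Cflar, the inhibitor of caspase-8, was at 314 and 269 CPM in wild type and 215 and 167 CPM in clones 54 and 69, and Apaf1, which activates caspase-9, at 107 and 97.4 against 53.4 and 78.3 CPM. Casp8 was at 83.5 and 88.7 against 79.9 and 83.4 CPM, with both clones just below both wild-type lines. In the BCL2 family, with 17 tested members and a median of -0.20 that was -0.0147 in clone 54, -0.26 in clone 69 and -0.0211 when clone 69 was left out, Bmf, a pro-apoptotic member, was at 8.45 and 14.1 against 26.0 and 30.4 CPM, and Bax at 46.5 and 42.3 against 27.9 and 30.7 CPM. Among 17 tested p53 targets 3 were higher and 3 lower at an unadjusted p under 0.05, and the median was -0.00144, and 0.13 without clone 69. Zmat3, an RNA-binding p53 target, was at 18.3 and 22.03 against 29.0 and 35.2 CPM, whereas Mdm2, the inhibitor of p53, was at 248 and 209 against 144 and 98.1 CPM, and Trp53 at 31.6 and 32.1 against 32.3 and 31.3 CPM.

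The clones also differed from each other, and genes with the widest gap between 1 clone and the other 3 NSG libraries are given as a description. In clone 54 the desmosomal cadherin genes Dsc2 and Dsg3 stood out, with Dsc2 at 54.7 CPM against 1.32, 4.72 and 4.18 CPM, and Ido1, which degrades tryptophan, at 19.8 against 1.32, 1.24 and 2.79 CPM. Clone 54 was lowest in Stc1, at 4.92 against 30.8, 24.0 and 21.9 CPM, and in Nptx1, at 2.25 against 42.1, 24.0 and 17.7 CPM. In clone 69 the matrix protein gene Npnt was at 352 CPM against 102, 80.7 and 59.5 CPM. Clone 69 was lowest in the chemokine Ccl3, at 59.3 against 383, 388 and 325 CPM, in the macrophage elastase Mmp12, at 81.5 against 366, 378 and 345 CPM, and in Slc7a11, the cystine transporter, at 178 against 913, 954 and 584 CPM. Proliferation genes had a median of -0.44 in clone 54 and 0.19 in clone 69, and interferon response genes 0.60 and -0.47.

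The same lines grown in Balb/c mice show which of these differences go with the lines in both hosts. The difference of the knockout effect between hosts passed the adjusted threshold for 0 genes with edgeR (0%, smallest adjusted p = 0.0691), with 3452 genes (22.5%) at an unadjusted p under 0.05, and for 974 (6.36%) with DESeq2. Of the 23 genes with an adjusted p under 0.10 in NSG tumors, 12 had the same sign in Balb/c, 6 of them with an unadjusted p under 0.05, and 6 had the opposite sign with an unadjusted p under 0.05. For 21 of the 23 the difference between hosts had an unadjusted p under 0.05 (22.5% of all genes), and since the genes were chosen by their NSG values nothing is read from that count. Odc1, with -2.11 ± 0.19 in NSG, was at -0.22 ± 0.18 in Balb/c (adjusted p of the difference = 0.0734). Ccl24, with -2.57 ± 0.23 in NSG, was at 0.60 ± 0.20 in Balb/c (adjusted p of the difference = 0.0691). Some NF-kB list and chemokine genes, picked after their values were seen, were lower in both hosts: Csf3 was at -2.28 ± 0.49 in NSG and -2.36 ± 0.52 in Balb/c, Il6 at -1.54 ± 0.34 and -1.18 ± 0.34, Nfkb1 at -1.27 ± 0.26 and -1.16 ± 0.26, and Cxcl1 at -1.31 ± 0.31 and -1.64 ± 0.32. None of these 4 had an unadjusted p under 0.05 for the difference (0.904, 0.47, 0.77 and 0.473 with edgeR), which does not show that the effects are alike. Csf2 was at -1.65 ± 0.38 and -2.67 ± 0.40, and Il11, at -3.80 ± 0.44 in NSG and -1.27 ± 0.49 in Balb/c, had an unadjusted edgeR p of 0.00482 for the difference (adjusted p = 0.107). Procr was lower in both hosts too, at -1.66 ± 0.22 and -1.29 ± 0.22.

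**Figure D5:**
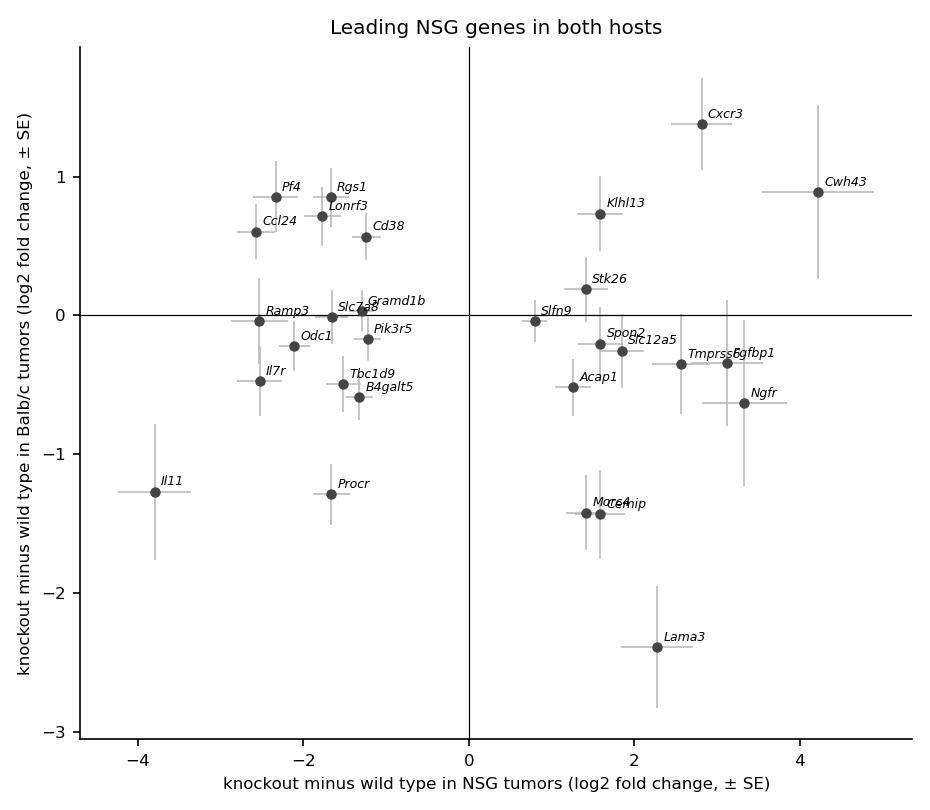
Log2 fold change of knockout minus wild type in NSG tumors (horizontal) and in Balb/c tumors (vertical), with SE bars, for 15 lower and 14 higher leading NSG genes. Il11 and Procr lie below 0 in both hosts, Cxcr3 above 0 in both, and Ccl24, Pf4, Lama3 and Morc4 lie on opposite sides.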

How the data were processed

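The series holds 8 RNA-seq libraries, and the 4 from NSG tumors are compared here. The deposited values are raw read counts per Ensembl gene, 1 library per file, with no normalization visible. The submitters' processing notes name cutadapt 1.13, STAR, HTSeq 0.6.1p1, DESeq2 and the builds mm10 and hg19, without role or order, and the strand setting is not given in the sources used here, so antisense, overlapping and near-identical genes are uncertain. GENCODE M21 held 24991 of the 25006 identifiers, and 24942 had a symbol.

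The counts went into edgeR 4.0.16 under R 4.3.3 (TMM, filterByExpr, quasi-likelihood test) in 1 model with 4 group means over all 8 libraries. The common biological coefficient of variation was 0.244, with 4 residual degrees of freedom. Some of these come from the Balb/c libraries, which hold the same 4 lines and add no further independent line. P-values were adjusted by Benjamini and Hochberg over 15310 genes, with a threshold of 0.05. SE values come from the fold change and the F statistic. The spread of CPM within a group rests on 2 libraries. The procedure was also run on simulated counts, and no result of that run is given here. Alternatives used DESeq2 1.42.0, limma 3.58.1 (voom), other scalings and filters, thinned counts and left-out libraries. A fit with the line as a block for the difference between hosts was added after seeing the data.

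Genes named are Fas and Fasl, genes past the threshold, the 15 smallest p-values per direction among genes without overlap and with at least 5 CPM in the higher group, the first and up to 4 leading members of each list, and up to 6 genes per clone and direction. Others were chosen after their values were seen (Ldha, Pgk1, Stc2, Lif, Ptgs2, Il1b, Mrc1, Cd68, Ccr2, Ly6c2, Casp8 and Epx). A few genes that the rule picks are not reported here. The lists and rules were chosen with earlier results of these data known. Lists carry no test: their counts and medians are to be read against those of all genes. Promoters are RefSeq windows of 250 bases.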

Additional observations from a re-analysis of the deposited data

Results flagged for a closer look

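In 12 gene lists the medians of both clones had one sign in NSG tumors and the opposite sign in Balb/c tumors, some of them close to 0. The difference of the list medians between hosts was not tested. The median log2 fold changes in NSG and Balb/c were -0.88 and 1 for macrophage and monocyte genes, -0.80 and 1.59 for alternatively activated macrophage genes, -0.45 and 0.34 for dendritic cell genes and -0.35 and 1.68 for MHC class II genes. They were -0.69 and 0.21 for glycolysis, -0.41 and 0.53 for cytosolic ribosomal proteins, -0.13 (-0.0816 without the parental library) and 0.75 for the respiratory chain and -0.38 and 0.43 for unfolded protein and amino acid stress. Chemokine ligands had -0.83 and 0.25, and the BCL2 family -0.20 and 0.48, where the NSG median was -0.0211 without clone 69. T cell genes had -0.38 and 0.07 and B and plasma cell genes 0 and -3.28. Both lists were low in NSG tumors, with summed levels of 7.60 to 12.8 CPM and 4.22 to 6.88 CPM. The T cell median was -0.0952 without clone 54 and -1.06 without clone 69. Of 14 tested T cell genes, 11 were lower and 3 higher in NSG knockout tumors. Without overlap, 2 were lower and 1 higher (25.8% and 26.7% of all genes). Most of the 14 passed the low-count filter only through the Balb/c libraries. With only the 4 NSG libraries, 4 T cell genes were tested, 2 higher and 2 lower, with a median of -0.0065. Only 1 B and plasma cell gene was then tested. The T cell median and counts are therefore not read as a decrease. Among the 14 genes Cd3e fell from 26 and 35 counts in the parental and vCas9 tumors to 1 and 3 in clones 54 and 69. This difference of -3.44 on the log2 scale did not pass the adjusted threshold.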

How the results depend on the processing

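The count of 2 genes was also 2 with DESeq2 size factors in edgeR, with thinned counts and without Mir6236, and 3 with total-count scaling, which added Il7r. It was 340 with DESeq2 (104 higher), 133 (41 higher) without the low-count filter, 1 with limma-voom (Odc1), 1 with only the 4 NSG libraries (Il11), and 0 when any single NSG library was left out, with 691 genes at an unadjusted p under 0.05 in edgeR without the parental library and 1532 to 1853 without another. The count of genes whose effect differs between hosts, 0 in edgeR, was 974 with DESeq2, 674 without the filter, and 0 to 2370 with single libraries left out, 2370 without Balb/c clone 69. With the line as a replicate block it was 0. No paired analysis was possible for the NSG contrast because each line has a single CD95 status.

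Over 215 named genes and all alternatives, 34 of 2565 fold changes changed direction, 4 of these only to or from 0, none of them of a gene past the threshold. With single NSG libraries left out, the log2 fold change ranged from -1.13 to 0.0597 for Fas, -0.021 to 0.78 for Bcl2, -0.028 to 0.018 for Trp53, -0.32 to 0.37 for Nfkbia, -0.26 to 0.90 for S100a8, -0.27 to 0.44 for Mki67, -0.78 to 0.018 for Bub1, -0.27 to 1.5 for Egfl7, -0.0010 to 0.73 for Eng, -0.51 to 0.28 for Pecam1, -0.26 to 0.047 for Ndufa1, -0.053 to 1.28 for Oasl2 and -0.28 to 1.30 for Zbp1. Among genes chosen for 1 clone it ranged from -2.59 to 1.08 for Fendrr, -1.92 to 0.38 for Il1f9, -0.86 to 2.10 for Mir763, -0.62 to 1.94 for Npnt, -0.42 to 3.03 for Slc12a3, -2.24 to 0.30 for Zfp57 and -2.47 to 0.24 for Zfp575. Cd3g ranged from -3.06 to 0 and Ctla4 from -3.98 to 0, both with almost no counts. With limma-voom Fendrr was at -0.58, and Ncr1, without counts in NSG tumors, at 0.45. Cd3g was at 0 with thinned counts. Total-count scaling put Casp8 at 0.0063 and Trp53 at 0.078, and Trp53 was at 0.00015 without the filter, 0.034 thinned, 0.0042 with only NSG libraries and 0.015 without Mir6236. The cause was not tested. Depth, lowest in the knockouts, limits genes of a few counts: 3 counts correspond to 0.346 CPM in clone 69 and 0.212 CPM in the parental library.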

Other observations

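Values of gene groups not described above follow. The median of adipocyte genes was 0.68 on the log2 scale, with 4 of 11 tested members higher and 1 lower at an unadjusted p under 0.05 in edgeR (6.78% and 7.25% of all genes), and the 4 became 0 without the parental library. Adipoq, which encodes the fat hormone adiponectin, was at 3.46 and 4.80 CPM in the parental and vCas9 tumors and 11.7 and 10.1 CPM in clones 54 and 69. Ucp1, the uncoupling protein of brown fat, was the lower one, at 4.22 and 8.28 against 1.60 and 0.497 CPM. Endothelial genes had a median of 0.39, but -0.19 in clone 54 and 0.85 in clone 69, and without clone 69 it was -0.28. Tek, an angiopoietin receptor, was at 13.4 and 21.5 against 36.7 and 38.0 CPM. The epidermal growth factor receptor ligands Ereg and Hbegf were lower, Ereg at 68.6 and 58.7 against 32.5 and 14.7 CPM and Hbegf at 175 and 152 against 118 and 75.1 CPM. Among immediate early genes Fos was higher, at 451 and 500 against 994 and 594 CPM, while Fosl1, its relative, was lower, at 141 and 72.6 against 33.8 and 19.1 CPM. Medians were 0.72 for skeletal muscle genes, -0.09 for both sterol synthesis and MHC class I presentation, -0.19 for matrix-degrading enzymes, -0.03 for angiogenic and growth factors (5 of 19 lower and 0 higher at an unadjusted p under 0.05) and 0.06 for immediate early genes, against 0.0131 over all genes. The sterol, MHC class I, angiogenic and immediate early medians changed sign when 1 library was left out, the median of matrix-degrading enzymes ranged from -0.35 without clone 54 to -0.11 without the vCas9 library, and that of skeletal muscle genes was 1.14 without clone 54.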
